A study of Mus musculus with 50 samples.

Results

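Aminoacyl-tRNA synthetases are the enzymes that join each amino acid to its own transfer RNA, the step that fixes the genetic code before a ribosome reads it. The members described here are the protein-coding genes of the deposited table whose symbol is 1 letter followed by ars, with or without a closing digit, together with Eprs, Farsa and Farsb. This rule found 37 genes among 35750 in the table, 19237 of them protein-coding. It uses names only and no measured value. Of the 37, 18 code for cytosolic enzymes, 17 for mitochondrial enzymes, whose symbols end in 2, and 2, Gars and Kars, for enzymes that serve both compartments. These 2 are counted with the cytosolic enzymes below. Tarsl2, a second cytosolic threonine enzyme, does not match the rule and is no member.

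Cytosolic synthetases charge the transfer RNAs used on cytosolic ribosomes. Mitochondrial synthetases are made from nuclear genes, imported, and charge the transfer RNAs that the mitochondrial genome encodes. Several cytosolic enzymes sit together in a multi-synthetase complex held by 3 scaffold proteins, and the cytosolic phenylalanine enzyme is built from an alpha subunit (Farsa) and a beta subunit (Farsb), whereas the mitochondrial one (Fars2) is a single chain. Many cytosolic synthetase genes are known targets of Atf4, the transcription factor of the amino acid response. A mouse zygote starts with RNA stored by the oocyte, and most of its own genes are switched on in the 2-cell embryo.

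RNA was sequenced from pools of 5 C57BL6/J mouse embryos in 50 libraries. Zygotes were injected with 200 ng/µl mRNA for V5-tagged Duxbl followed by a 2A sequence and nuclear mCherry (Duxbl embryos), with 200 ng/µl mRNA for nuclear mCherry (mCherry embryos), or left uninjected. They were collected 28 to 30 h (late 1C, the 1-cell stage), 32 h (early 2C, the 2-cell stage) or 48 h (late 2C) after the hormone hCG. Uninjected and mCherry embryos gave 6 libraries at each stage, and Duxbl embryos gave 4, 5 and 5. Duxbl is a double homeobox protein, and the series title concerns its part in the exit from totipotency. Injection supplies mRNA for the protein from the zygote onwards, so the Duxbl groups show forced expression and not loss of the gene. These libraries measure RNA only, and the protein level is not known from them. The labels do not say that libraries of a group came from separate matings or injection days, so p-values measure the spread between these libraries.

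Levels are given in CPM, here deposited values divided by a library's scaled total and set to the usual counts-per-M scale. Deposited totals were 12.04 to 26.96 M, and since the authors' values appear to have been scaled before deposit, these totals do not give the number of reads and no counting interval was computed. The Duxbl1 gene, whose row also collects the injected mRNA, had medians of 3821, 3165 and 2772 CPM in Duxbl embryos at the 3 stages against 141, 158 and 346 CPM in mCherry embryos, with no overlap. Within groups, libraries resembled each other least at late 2C. The lowest correlation, across genes, of a library's log2 values with the mean of the other libraries of its group was 0.869, in replicate 4 of Duxbl late 2C, followed by 0.885 in replicate 4 of uninjected late 2C. The summed level of 11 oocyte and embryo markers was 3050 to 3790 CPM in Duxbl embryos at late 2C, against 1241 to 2143 in mCherry and 1117 to 1799 in uninjected embryos, with no marker at 0 in all libraries. Of other cell types, 5 blood markers summed to 3.05 to 13.0 CPM in Duxbl, 30.9 to 51.6 in mCherry and 24.8 to 60.5 in uninjected embryos at late 2C. Cumulus and granulosa markers (10 genes) summed to 16.6 to 58.6 CPM in Duxbl and 10.5 to 19.5 in mCherry embryos, with Inha at 0 in both and Inhba also in Duxbl. The ranges of Duxbl and mCherry overlapped for oviduct markers (77.8 to 183 and 47.6 to 159 CPM) and sperm markers (4.08 to 31.4 and 3.20 to 9.96 CPM). The part of these differences in the results below was not tested.

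At the late 1-cell stage the 37 transcripts spanned a wide range. Per kilobase of transcript, which allows genes to be compared, Nars, the asparagine enzyme, was highest in uninjected embryos at 92.6 CPM per kb, followed by Farsb at 86.6 and Kars, the lysine enzyme, at 59.3. The mitochondrial enzyme with the highest level was Fars2 at 49.7 CPM per kb. Yars, the cytosolic tyrosine enzyme, was the lowest of all at 0.0981 CPM per kb, below Nars2 at 0.124. In CPM, the 20 cytosolic genes summed to 1500 ± 112 (SD, n = 6) and the 17 mitochondrial genes to 222 ± 29.9 (SD, n = 6), so that the mitochondrial genes made up 12.8% ± 0.87 of the total. Fars2 alone gave 47.1% ± 6.41 of the mitochondrial sum at late 1C and 52.3% ± 6.73 at early 2C (SD, n = 6 each).

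**Figure D1:**
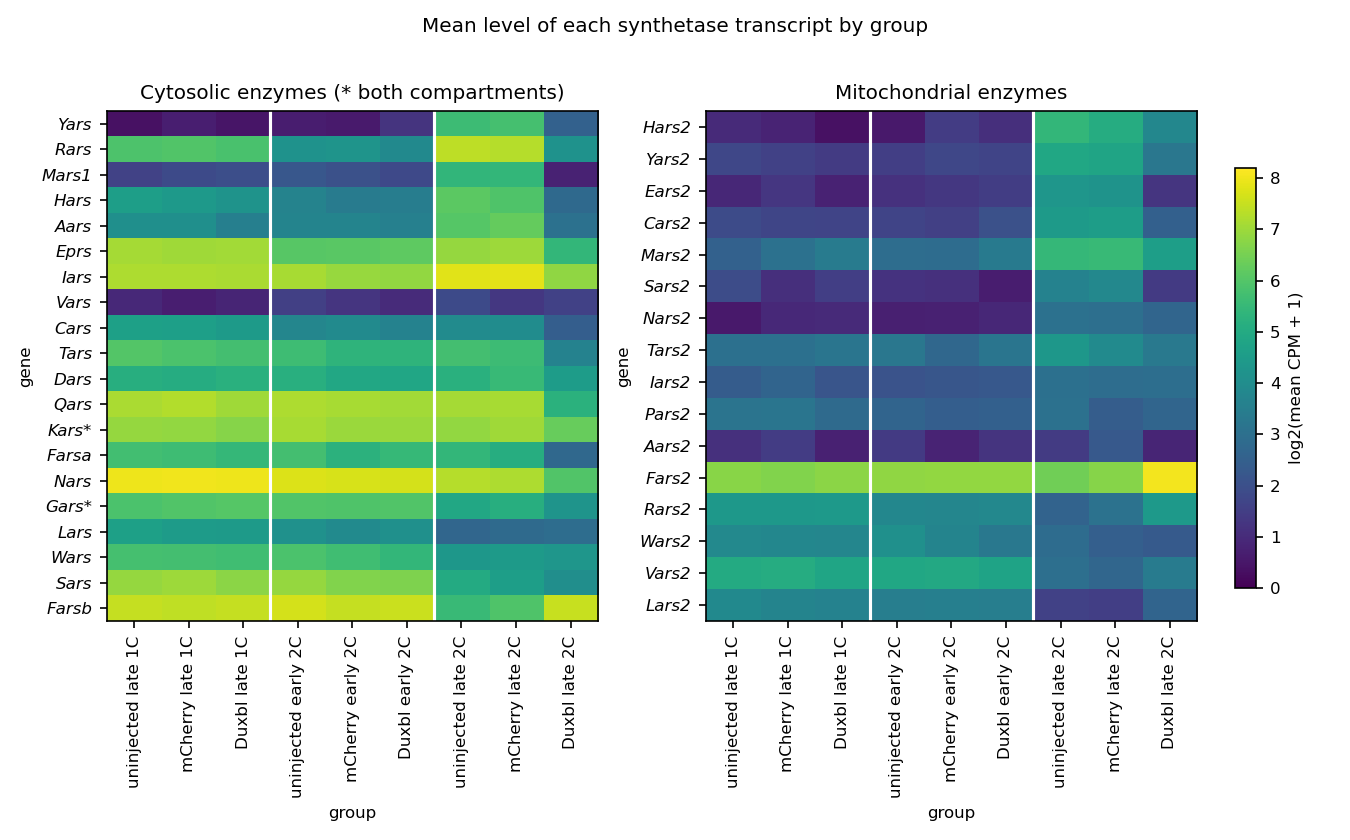
Mean level of each of 36 synthetase transcripts in the 9 groups, as log2(mean CPM + 1) on the colour scale; genes are ordered by the change of uninjected embryos within the 2-cell stage, and white lines separate the stages. At late 2C Mars1 and Yars are bright in the uninjected and mCherry columns and dark in the Duxbl column, and Farsb and Fars2 are brightest in the Duxbl column.

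Between late 1C and early 2C few members changed in uninjected embryos. All 37 passed the filter on low values, here and in every later comparison. A member was called when its adjusted p in limma was under 0.05, and 3 were called lower and 0 higher, against 1.77% and 1.12% (2.89% together) of all 28808 genes tested. The replicate block and voom weights also gave 3 lower and 0 higher. Rars, the cytosolic arginine enzyme, ranged from 31.4 to 76.2 CPM at late 1C (median 64.2) and from 8.12 to 23.5 at early 2C (median 19.9), so the stages did not overlap. Its log2 change was -1.77 ± 0.30 (SE, adjusted p = 0.000111). Eprs, a single protein that charges both glutamate and proline, fell from 107 to 164 CPM (range) to 34.6 to 105 (log2 change -1.10 ± 0.22, SE, adjusted p = 0.000866). Hars, the cytosolic histidine enzyme, fell by 0.92 on the log2 scale (SE 0.25, adjusted p = 0.0263), a call lost when replicates 1, 3, 4, 5 or 6 were left out (adjusted p 0.069 to 0.137). Cars, the cytosolic cysteine enzyme, was at 24.5 ± 7.42 and 12.4 ± 3.44 CPM (SD, n = 6 each) and was not called (log2 difference -0.92, adjusted p = 0.315), but was called lower in the fit of the compared groups only (-0.92, adjusted p = 0.0135). The rule for named genes also takes the largest rises of this step, and the 4 members it found, Mars1, Mars2, Vars and Aars2, were not called and had log2 differences of at most 0.68.

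The 2-cell stage itself changed most members. In uninjected embryos 17 of the 37 were called higher at late than at early 2C and 11 lower, in a background where 57.1% of all genes were called, 30.8% higher and 26.3% lower. The cytosolic genes split almost evenly, with 7 higher, 6 lower and 7 not called, and their median log2 change was 0.04. Among mitochondrial genes 10 were higher, 5 lower and 2 not called, with a median of 1.12. The median over all genes tested was 0.03, and 0.15 on library totals without TMM scaling.

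The largest rise of all members was that of Yars, which was at 0 to 2.47 CPM at early 2C (median 0.262) and at 42.8 to 53.3 at late 2C (median 50.1), a gap with no overlap (log2 change 5.12 ± 0.33, SE, adjusted p = 6.53e-19). Mars1, the cytosolic methionine enzyme that also charges the initiator transfer RNA, went from 0.617 to 7.55 CPM (median 3.69) to 18.8 to 51.7 (median 45.4), again with no overlap (3.37 ± 0.36, SE, adjusted p = 1.48e-11). Rars, lower at early 2C than at late 1C, was at 95.7 to 224 CPM at late 2C (log2 change 3.25 ± 0.30, SE, adjusted p = 2.3e-13), and Hars and Aars, the cytosolic alanine enzyme, had log2 changes of 2.47 and 2.35. Per kilobase Rars became the highest of the 37 in uninjected embryos, at 78.3 CPM per kb.

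Among mitochondrial enzymes the largest rise was that of Hars2, the histidine enzyme, from 0 to 1.85 CPM to 27.1 to 72.4 (log2 change 4.87 ± 0.42, SE, adjusted p = 1.23e-14). Hars and Hars2 lie head to head on opposite strands with 198 shared bases, and the kits used do not mark the strand, so reads in that stretch cannot be told apart. Yars2 (tyrosine) and Ears2 (glutamate) rose by 3.35 and 3.26 on the log2 scale. Cars2, Sars2, Mars2 and Nars2, for cysteine, serine, methionine and asparagine, rose by between 2.27 and 2.92. No library of late 2C reached down to an early 2C library for Ears2, Cars2, Sars2 and Mars2.

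Among the genes that fell, Farsb had the largest change. It went from 169 to 250 CPM (median 202) to 35.4 to 68.8 (median 37.8), with a log2 change of -2.17 ± 0.18 (SE, adjusted p = 3.46e-15). Lars2, the mitochondrial leucine enzyme, fell by 2.03, Sars, the cytosolic serine enzyme, by 1.96 and Vars2, the mitochondrial valine enzyme, by 1.86, each with no overlap between the stages. Fars2 was at 113 ± 19.96 and 84.2 ± 21.2 CPM (SD, n = 6 each). Its log2 change of -0.43 was called in limma (adjusted p = 0.0442), but this call was lost on library totals without TMM scaling (-0.07, adjusted p = 0.807), with voom weights (-0.43, adjusted p = 0.0608), with no filter on low values, in the fit of the compared groups only, and without replicate 3, 5, 6 or 7.

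mCherry embryos went through the 2-cell stage with 19 members called higher and 9 lower (31.3% and 26.1% of all genes, 57.3% together). They share no library with the uninjected groups. Yars, Mars1 and Rars had log2 changes of 5.22, 3.36 and 3.03, and Farsb and Lars2 of -1.59 and -2.12. Directly compared with uninjected embryos, mCherry embryos had no called member at any stage, in a background of 0.0% of genes called. In limma 2 members had an unadjusted p under 0.05 at late 1C (Mars2 and Sars2), 2 at early 2C (Farsa and Hars2) and 0 at late 2C, and voom weights and the replicate block also gave 0 calls.

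Duxbl embryos did not differ detectably from mCherry embryos in these genes at the first 2 stages. At late 1C 0 of 37 members were called, against 0.0193% of all genes (0.00481% higher and 0.0144% lower), and 1, Aars, had an unadjusted p under 0.05 in limma (log2 difference -0.52 ± 0.22, SE). At early 2C 0 of 37 were called, against 0.42% of all genes (0.0236% higher and 0.397% lower), and 0 had an unadjusted p under 0.05. Voom weights and the replicate block gave 0 calls at both stages. The log2 differences of single members lay between -0.65 and 0.55 at late 1C and between -0.44 and 0.64 at early 2C.

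At late 2C Duxbl and mCherry embryos differed in 26 of the 37 members. The 20 cytosolic genes gave 15 called lower, 1 called higher and 4 not called, and the 17 mitochondrial genes gave 8 lower, 2 higher and 7 not called. Over all 23052 genes tested, 55.7% were called, 30.1% lower and 25.6% higher, so a called difference alone was common at this stage. The median log2 difference was -1.40 for cytosolic and -1.23 for mitochondrial members, and -0.10 for all genes tested. That last median depends on the scaling, at -0.26 on library totals and -0.01 on the deposited scale. The number of cytosolic members called lower was 13 to 16 under every alternative run, and 14 without Duxbl replicate 4, where the mitochondrial counts were 9 lower and 1 higher. These are pools of embryos, in which fewer cells with a transcript and less transcript per cell cannot be told apart.

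**Figure D2:**
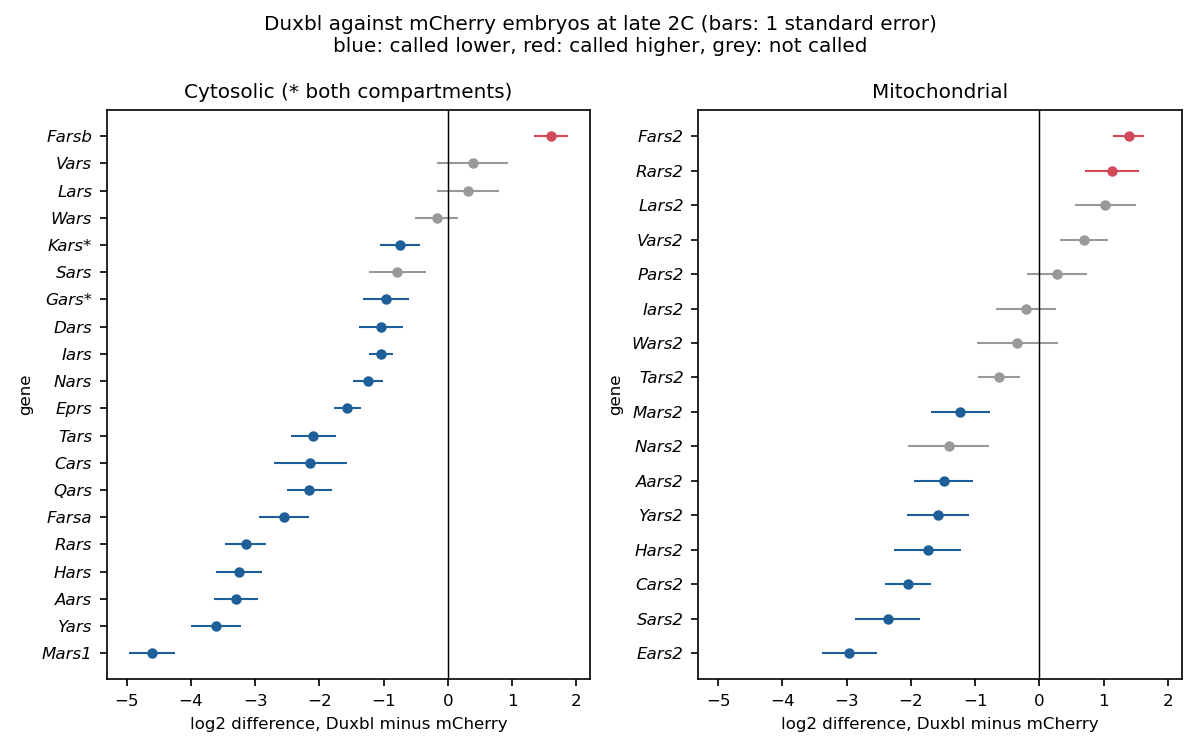
Log2 difference of each of 36 synthetases between Duxbl (n = 5) and mCherry (n = 6) embryos at late 2C, on the log2(CPM + 1) scale with bars of 1 standard error, cytosolic enzymes left and mitochondrial enzymes right. Blue points are genes called lower, red points genes called higher and grey points genes not called; 22 are blue and 3, Farsb, Fars2 and Rars2, are red.

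The largest fall was in Mars1. Its 5 Duxbl libraries had 0.143, 0.385, 0.523, 0.890 and 1.69 CPM, and the 6 mCherry libraries 24.3 to 66.2 CPM with a median of 35.3. The groups lay far apart, and the log2 difference was -4.61 ± 0.36 (SE, adjusted p = 7.04e-10). Mars1 (chromosome 10, 127132090 to 127147655, minus strand, mm39) overlaps the gene span of Ddit3, a stress-response transcription factor on the other strand, by 68 bases. Ddit3 was itself at 15.5 ± 7.95 CPM in Duxbl (n = 5) and 142 ± 91.4 in mCherry embryos (SD, n = 6).

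Yars had 1.07, 1.55, 2.90, 4.21 and 14.2 CPM in Duxbl and 32.8 to 79.6 CPM (median 50.6) in mCherry embryos. The highest Duxbl value, from replicate 4, stood apart from the other Duxbl libraries and still lay below every mCherry library. The log2 difference was -3.60 ± 0.39 (SE, adjusted p = 8.31e-08), and -4.05 without that library. Aars had 4.31, 4.5, 4.56, 7.17 and 16.2 CPM in Duxbl and 40.5 to 122.7 CPM (median 76.1) in mCherry embryos, with no overlap (-3.30 ± 0.34, SE, adjusted p = 3.46e-08). In the GENCODE vM21 transcripts (GRCm38), 1326 bases of Aars are identical to sequence annotated to Exosc6, so reads from that stretch are uncertain. Yars transcripts also hold stretches matched in 49 other genes, the longest 221 bases at 96.4% identity. Eprs transcripts hold stretches matched in 233 other genes, the longest 207 bases at 95.2% identity.

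Hars and Rars followed with log2 differences of -3.25 and -3.14. Rars had 7.54, 12.1, 17.8, 18.5 and 29.0 CPM in Duxbl and 91.4 to 242 CPM (median 154) in mCherry embryos, and every Duxbl library was below every mCherry library (adjusted p = 3.69e-08). Farsa was at 0.529, 5.17, 6.69, 6.98 and 9.37 CPM in Duxbl and at 23.6 to 45.9 CPM (median 33.9) in mCherry embryos (-2.55 ± 0.39, SE, adjusted p = 9.43e-06). The remaining cytosolic members called lower, named after their values were seen except Cars and Eprs, were Qars (glutamine), Cars, Tars (threonine), Eprs, Nars, Dars (aspartate), Iars (isoleucine), Gars (glycine) and Kars, at log2 differences from -2.15 to -0.74. Of the 15 cytosolic members called lower, 11 had groups that did not overlap. Over all genes tested, 19.8% had every Duxbl library below every mCherry library, and among the genes called lower this share was 64.5%. Lars (0.32), Vars (0.39), Wars (-0.17) and Sars (-0.79), for leucine, valine, tryptophan and serine, were not called. Sars was called lower without Duxbl replicate 4 (-1.21, adjusted p = 0.0144), in the fit of all 9 groups (-0.79, adjusted p = 0.021) and with uninjected embryos as the control (-1.21, adjusted p = 0.0242).

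Farsb was the exception among the cytosolic enzymes. It had 130, 168, 175, 215 and 216 CPM in Duxbl embryos, against 38.6 to 105 CPM (median 57.2) in mCherry embryos. All 5 Duxbl libraries were above all mCherry libraries (log2 difference 1.61 ± 0.27, SE, adjusted p = 3.0e-05). Such a separation upward was seen in 14.8% of all genes tested and in 57.3% of the genes called higher. The Farsb values of Duxbl embryos at late 2C overlapped those of the same treatment at early 2C, which were 156 to 234 CPM. Of the 2 subunits of the cytosolic phenylalanine enzyme, Farsa was thus lower and Farsb higher in Duxbl embryos at late 2C. Per kilobase Farsb stood at 88.8 CPM per kb in Duxbl embryos, second of the 37. Farsb (chromosome 1, 78394612 to 78465534, minus strand, mm39) overlaps the gene span of Sgpp2, on the other strand, by 2315 bases. Their GENCODE vM21 transcripts share a stretch of 250 identical bases. Sgpp2 was at 10.6 ± 17.5 CPM in Duxbl (n = 5) and 1.57 ± 1.26 in mCherry embryos (SD, n = 6).

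**Figure D3:**
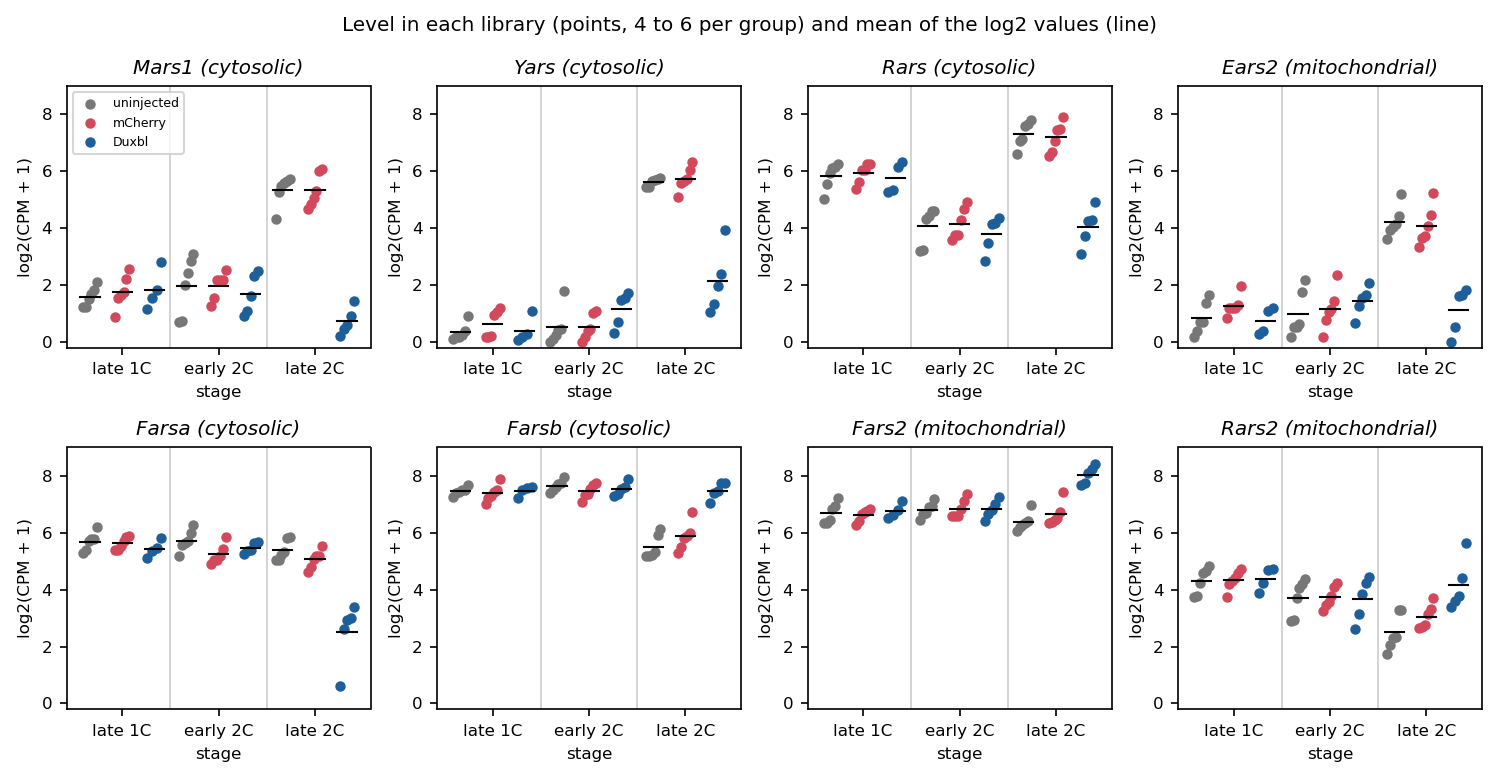
Level of 8 synthetase transcripts in each of the 50 libraries, as log2(CPM + 1), with the stages along the x axis, points for libraries in colours for uninjected, mCherry and Duxbl embryos, and a line at the mean of each group's log2 values. At late 2C the Duxbl points lie below the other groups for Mars1, Yars, Rars, Ears2 and Farsa and above them for Farsb and Fars2, while for Rars2 they overlap.

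The third phenylalanine gene, Fars2, was also higher. Its Duxbl libraries had 203, 215, 276, 303 and 338 CPM, the mCherry libraries 80.6 to 171 CPM (median 89.1), and the groups did not overlap (log2 difference 1.39 ± 0.24, SE, adjusted p = 3.43e-05). Here the Duxbl level was also above that of Duxbl embryos at early 2C, which was 83.6 to 153 CPM (log2 change 1.20 ± 0.20, SE, adjusted p = 3.85e-06). Per kilobase, Fars2 was the highest of the 37 in Duxbl embryos at late 2C, at 125.6 CPM per kb. Fars2 (chromosome 13, 36301395 to 36910254, plus strand, mm39) shares 115 exonic bases with Lyrm4, which was at 32.8 ± 11.8 CPM in Duxbl (n = 5) and 9.29 ± 2.38 in mCherry embryos (SD, n = 6). In the GENCODE vM21 transcripts it also has 503 bases identical to sequence annotated to Nrn1, so reads from that stretch are uncertain, and Nrn1 was at 0.671 ± 0.882 CPM in Duxbl (n = 5) and 0.12 ± 0.295 in mCherry embryos (SD, n = 6).

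Arginine showed the other pair of opposite calls. Rars2, the mitochondrial arginine enzyme, had 9.60, 11.2, 12.7, 20.2 and 49.5 CPM in Duxbl and 5.25 to 11.95 CPM (median 6.81) in mCherry embryos, where the cytosolic Rars was lower in Duxbl. The Rars2 groups overlapped, and the log2 difference was 1.13 ± 0.42 (SE, adjusted p = 0.0274). This call rests on Duxbl replicate 4, without which the difference was 0.76 and not called (adjusted p = 0.109). It was also lost on library totals without TMM scaling (0.93, adjusted p = 0.0816) and without replicate 3 of every group (1.00, adjusted p = 0.0936).

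Other mitochondrial enzymes were lower in Duxbl embryos. Ears2 had 0, 0.445, 2.04, 2.15 and 2.501 CPM in Duxbl and 9.17 to 36.8 CPM (median 14.0) in mCherry embryos, with no overlap (log2 difference -2.96 ± 0.43, SE, adjusted p = 4.37e-06). Sars2 and Cars2 had log2 differences of -2.36 and -2.05. Hars2, Yars2, Aars2 and Mars2 were called at -1.74, -1.58, -1.49 and -1.23, all with overlapping groups. The call was lost for Aars2 with uninjected embryos as the control (-0.65, adjusted p = 0.238) or without replicate 1, for Mars2 without replicate 3 (-0.67, adjusted p = 0.209) or 7 or with no filter on low values, and for Yars2 without replicate 6 (-1.08, adjusted p = 0.0878). Iars2, Lars2, Nars2, Pars2, Tars2, Vars2 and Wars2 were not called, with log2 differences between -1.41 and 1.03. Vars2 overlaps the gene span of Gm20483, on the other strand, by 4734 bases, and their transcripts share 339 identical bases. Lars2 was called higher with the replicate number as a block (1.14, adjusted p = 0.0496), on the deposited scale (1.10, adjusted p = 0.0432), in the fit of all 9 groups (1.03, adjusted p = 0.00326) and without replicate 5 or 6, and Vars2 was called higher in the fit of all 9 groups (0.70, adjusted p = 0.028).

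Summed over genes, the classes differed. The 20 cytosolic genes together stood at 651 ± 82.1 CPM in Duxbl (n = 5), 1447 ± 277 in mCherry (n = 6) and 1422 ± 172 in uninjected embryos at late 2C (SD, n = 6). The 17 mitochondrial genes together stood at 394 ± 56.1, 344 ± 59.9 and 339 ± 24.3 CPM in the same order. Their share of all synthetase CPM was 37.7% ± 3.07 in Duxbl against 19.4% ± 2.47 in mCherry and 19.4% ± 1.89 in uninjected embryos, while at the earlier stages the group means lay between 12.6 and 15.0%. Of the mitochondrial sum in Duxbl embryos, 68.0% ± 11.3 was Fars2 (SD, n = 5), against 29.7% ± 5.76 in mCherry embryos (SD, n = 6). Without Fars2 the other 16 mitochondrial genes summed to 127 ± 51.8 CPM in Duxbl and 241 ± 39.6 in mCherry embryos, and their share was 16.1% ± 4.97 and 14.4% ± 1.05. Leaving out replicate 4, these shares were 14.1% ± 2.59 (SD, n = 4) and 14.1% ± 1.01 (SD, n = 5). The sums are given as a description with no test.

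**Figure D4:**
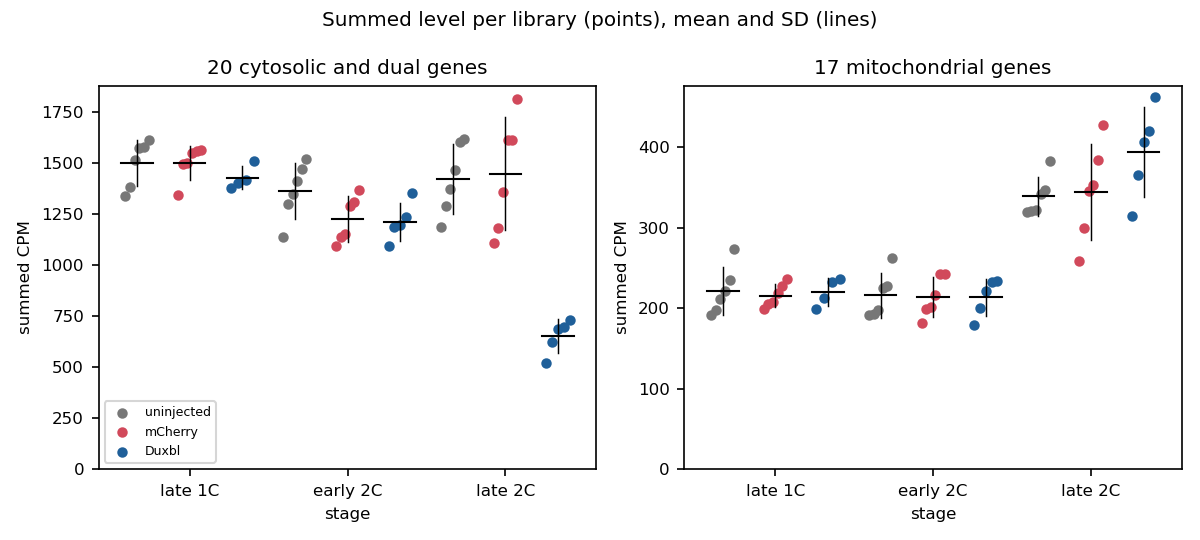
Summed CPM per library of the 20 cytosolic genes, with the dual ones (left), and of the 17 mitochondrial genes (right), by stage; points are libraries, horizontal lines group means and vertical lines 1 SD. At late 2C the cytosolic sum of every Duxbl library, at most 731 CPM, is below the lowest mCherry library at 1107 CPM, while the mitochondrial sums overlap.

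The call in Duxbl embryos at late 2C can be set against the course of uninjected embryos. Uninjected libraries enter neither group mean of that comparison. The fits do share libraries in their variances and filters, so the calls are not fully separate. Of the 17 members that rose within the 2-cell stage of uninjected embryos, 14 were called lower in Duxbl than in mCherry embryos at late 2C and 3 (Iars2, Nars2 and Tars2) were not called. Of the 11 members that fell in uninjected embryos, 3 (Farsb, Fars2 and Rars2) were called higher in Duxbl embryos, 6 (Lars, Lars2, Sars, Vars2, Wars and Wars2) were not called, and 2 (Gars and Nars) were called lower. As given above, the fall of Fars2 in uninjected embryos and the higher level of Rars2 in Duxbl embryos rest on calls lost in some alternative runs. The lower calls of Mars2 and Yars2 in Duxbl embryos were also lost in some runs. Of the 9 members with no called change in uninjected embryos, 7 were called lower, namely Aars2, Cars, Dars, Farsa, Kars, Qars and Tars, and Pars2 and Vars were not called. The same division was common among all 23052 genes tested in both comparisons. Of the genes that rose in uninjected embryos, 62.7% were called lower in Duxbl than in mCherry embryos at late 2C and 3.11% higher. Of those that fell, 56.6% were called higher and 4.39% lower, and of those with no called change 15.5% were called lower and 24.3% higher.

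Duxbl embryos also changed between early and late 2C. In them 5 members were called higher and 16 lower (20.1% and 18.7% of all genes, 38.8% together), and the cytosolic genes gave 1 higher and 13 lower. Farsa fell from 37.4 to 49.7 CPM (range) to the values above, a log2 change of -2.96 ± 0.28 (SE, adjusted p = 4.18e-12), and Sars, Qars, Cars and Tars had changes of -2.90, -2.11, -1.83 and -1.80. In uninjected embryos Farsa, Qars, Cars and Tars had changes between -0.34 and 0.09, none of them called. Rars (0.25, adjusted p = 0.612), Aars (-0.61, adjusted p = 0.0746) and Ears2 (-0.31, adjusted p = 0.587) had no called change in Duxbl embryos, although Aars was called lower on the deposited scale (-0.73, adjusted p = 0.0359) and without replicate 3 or 5. Hars2 and Yars2 rose there by 2.28 and 1.44, and in uninjected embryos by 4.87 and 3.35. Yars was called higher (0.98, adjusted p = 0.0273) and Mars1 lower (-0.96, adjusted p = 0.0484), but both calls were lost without replicate 4 of Duxbl late 2C, at 0.53 (adjusted p = 0.226) and -0.90 (adjusted p = 0.0905). They were also lost without replicate 3, with voom weights and in the fit of the compared groups only, and that of Mars1 with the replicate block (-0.85, adjusted p = 0.061). Yars2 lost its call without replicate 4 (1.16, adjusted p = 0.0713) or 7 (1.07, adjusted p = 0.122).

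**Figure D5:**
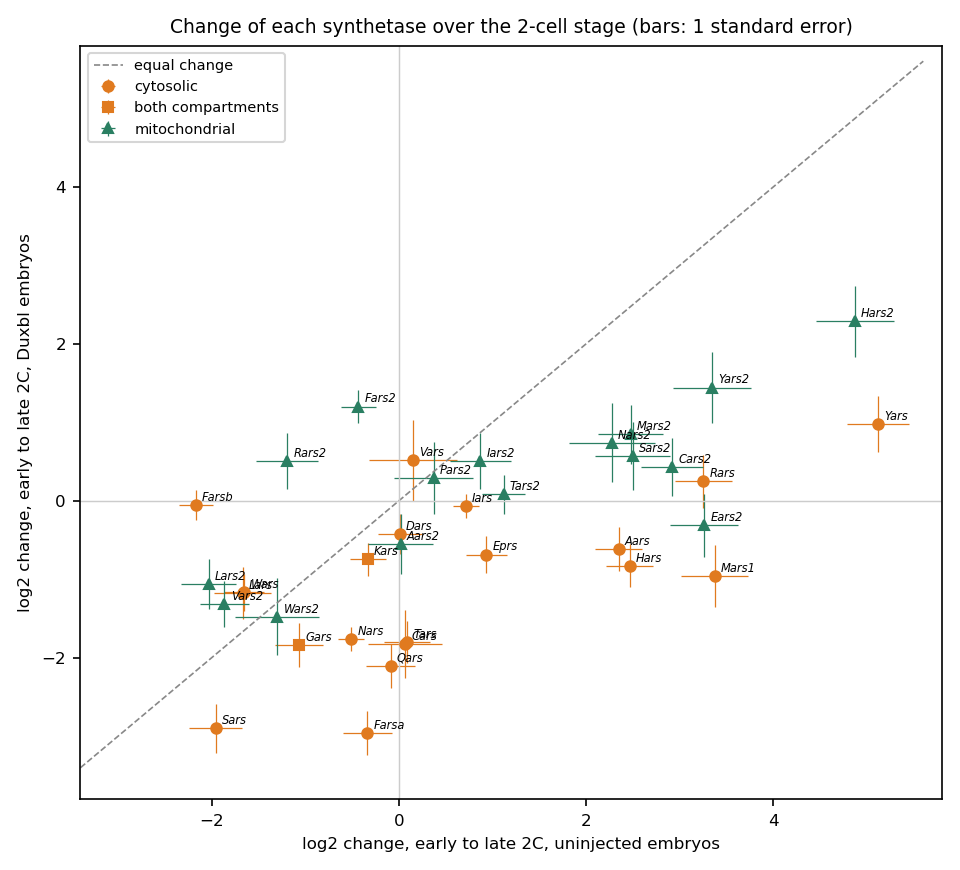
Log2 change of each of 36 synthetases between early and late 2C, in uninjected embryos (x axis, 6 and 6 libraries) and in Duxbl embryos (y axis, 5 and 5 libraries), with bars of 1 standard error; orange marks cytosolic and dual genes, green triangles mitochondrial genes, and the dashed line equal change. Most members to the right, such as Yars (5.12 and 0.98) and Hars2 (4.87 and 2.28), lie below the line, and Fars2 (-0.43 and 1.20) and Farsb (-2.17 and -0.05) lie above it.

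The difference between the steps was tested as an interaction. The change from early to late 2C was called lower in Duxbl than in mCherry embryos for 23 members and higher for 5 (23.7% and 21.1% of all genes, 44.8% together). For cytosolic genes the counts were 15 and 1, for mitochondrial genes 8 and 4. Mars1 (-4.32 ± 0.54), Yars (-4.24 ± 0.49), Hars (-3.28 ± 0.37), Ears2 (-3.23 ± 0.54) and Aars (-3.10 ± 0.37) had the largest negative step differences on the log2 scale (± SE), and Farsb (1.54 ± 0.27) and Fars2 (1.40 ± 0.28) the largest positive ones. The 4 mitochondrial genes called higher fell to 1 without replicate 4 of Duxbl late 2C, on library totals, and in a fit of the compared groups only. Without that library Rars2 (0.82, adjusted p = 0.141), Lars2 (0.82, adjusted p = 0.113) and Vars2 (0.87, adjusted p = 0.0739) were not called, whereas Sars (-1.21, adjusted p = 0.0061) and Yars2 (-1.55, adjusted p = 0.0419) were called lower. This test uses the same late 2C libraries as the comparison of Duxbl with mCherry embryos and is no separate evidence.

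When the enzymes were grouped by other properties, more members were called lower than higher in each group. The shares of all genes tested, for Duxbl against mCherry embryos at late 2C, were 30.1% lower and 25.6% higher. Of the 8 members of the multi-synthetase complex, 7 were called lower at late 2C, with a median log2 difference of -1.30, and of the 12 cytosolic members outside it 8 were lower and 1 higher (median -1.67). Of 13 synthetases listed as Atf4 targets, 9 were called lower (median -1.24), and of the 7 cytosolic members not on that list 6 were lower and 1 higher (median -2.15). By catalytic fold, 11 of 19 class I enzymes were lower and 1 higher, and 12 of 19 class II enzymes, Tarsl2 included, were lower and 2 higher. None of these splits was tested as a difference.

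The start regions of the members were examined for the amino acid response element, the motif through which Atf4 acts, since many of these genes are listed as its targets. RefSeq start windows on GRCm38.p6, of 300 bases with 250 before the start, were given for 27 of the 37 members. The element's core, TGATGNAA, was searched on both strands and found in 5 members, Aars, Gars, Iars, Tars and Yars, and in 3.97% of all 32851 windows. These were 4 of 11 cytosolic, 1 of 2 dual and 0 of 14 mitochondrial members. Stretches that hold it are shown, 1 for each of these members, because they are where these genes carry the letters of the element. Each is written 5′ to 3′ on the gene's own strand, with the core or its reverse complement in capitals.
Aars, chr8:111033840-111033869, plus strand: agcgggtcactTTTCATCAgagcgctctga
Gars, chr6:55037960-55037989, plus strand: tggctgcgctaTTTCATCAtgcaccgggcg
Iars, chr13:49682126-49682155, plus strand: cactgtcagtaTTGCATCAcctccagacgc
Tars, chr15:11399655-11399684, minus strand: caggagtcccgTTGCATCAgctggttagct
Yars, chr4:129189895-129189924, plus strand: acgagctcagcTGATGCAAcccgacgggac
The matches shown begin 30 bases before the start in Gars and 15 before it in Tars, and at base 10 of the transcript in Aars and bases 8 and 4 of the transcript in Iars and Yars. A match describes letters only. All 5 genes were called lower in Duxbl embryos at late 2C, with log2 differences of -3.30 (Aars), -0.96 (Gars), -1.04 (Iars), -2.09 (Tars) and -3.60 (Yars). Of the cytosolic and dual members whose windows hold no such core, Mars1 (-4.61), Farsa (-2.55), Qars (-2.15), Eprs, Dars and Kars were called lower. Sars was not called and Farsb was called higher. Whether the core has a part in these differences was not tested. An ETS motif, CCGGAAGT, was found in Farsa, Mars1 and Rars2 and in 3.89% of all windows, and the motifs named for Nrf1 (0.971% of all windows) and Dux (0.207%) were found in 0 members.

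Other genes of the pathway were counted from lists in the same comparison of Duxbl with mCherry embryos at late 2C. In that comparison 30.1% of all genes tested were called lower and 25.6% higher, the shares to set beside each count. Of the 3 scaffold genes of the multi-synthetase complex, Aimp2 (144 CPM in mCherry and 5.45 in Duxbl embryos, log2 difference -4.83) and Eef1e1 (-1.87) were called lower and Aimp1 (-0.71) was not called. All 5 cytosolic elongation factor genes were lower, led by Eef1d (-3.36), part of the exchange factor, and Eef2 (-2.70), the translocation factor. Of 19 genes of transfer RNA maturation and export 13 were lower and 0 higher, with Pus1, a pseudouridine synthase, at -3.94 and Tsen15, a splicing endonuclease subunit, at -3.94. Of 13 mitochondrial translation factors and amidation genes 4 were lower and 1 higher. Tufm, the mitochondrial elongation factor Tu, was at -3.47, Mtfmt, which formylates the initiator methionine, at -2.25, and Gatc, an amidation subunit, at 1.12. Among 4 trans-editing factors 1 was lower (Prorsd1, -1.70), and among 6 selenocysteine genes 1 was higher (Sephs2, 1.46).

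Of the 25 amino acid response genes outside the synthetases, 12 were called lower and 6 higher, against 30.1% and 25.6% of all genes tested. Atf4 itself was at 424 CPM in mCherry and 164 CPM in Duxbl embryos (log2 difference -1.42 ± 0.28, SE, adjusted p = 0.000152). Sesn2, a sensor of leucine (-4.80), and Trib3, a pseudokinase that restrains Atf4 (-4.45), were the lowest. Shmt2, a mitochondrial serine and glycine enzyme (2.11), and Slc7a1, a transporter of cationic amino acids (2.09), were the highest.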

How the data were processed

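Libraries were made with SMART-Seq v4 and Nextera XT kits, per the labels' protocols. The deposited table holds 1 whole number per gene and library with mm39 coordinates. The submitters' processing notes name Trimmomatic 0.39, STAR 2.7.10a, Picard 3.0.0, featureCounts 2.0.4 and DESeq2 1.36.0. In 19 of the 50 libraries some whole numbers from 1 to 20 never occur, so these deposited numbers were handled as a score that appears to be read counts scaled and then rounded, and no count model was fitted. Each value was divided by the library total times a TMM factor over all 50 libraries (30% and 5% trimmed) and given as CPM. Testing used limma 3.58.1 in R 4.3.3 on log2(CPM + 1), which understates changes of low genes, for genes that reached a value of 10 in a number of libraries equal to the size of the smallest group fitted. The fit had trended, robust variances, two-sided tests and Benjamini-Hochberg adjustment over all genes tested, with adjusted p under 0.05 called. Comparisons within a stage were fitted on its 3 groups, those between stages and their difference on all 9. The limma script was run on simulated data in which few genes changed, evenly up and down. That setting differs from late 2C, where 55.7% of genes were called, so it does not test the calls made there. Transcript lengths are those of GENCODE vM21 and shared sequence was found with BLAST 2.17.0 (at least 75 bases at 95% identity).

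The members, lists and tests were chosen with earlier results of these data known, the Atf4 target and amino acid response lists from textbook knowledge. The rule for named genes took the largest called rises and falls at late 2C in each class and opposite calls within an amino acid. It also took the 4 largest rises and falls of each step in uninjected embryos. For some of these genes only the log2 difference is printed. Any other member was named after its values were seen. The main fits used no pairing, and the replicate block was run only as an alternative. Pairing by replicate number was checked by asking whether deviations from group means of every same-numbered pair correlated above 0.1. This held for Duxbl and mCherry at late 1C (r 0.443 to 0.61, 4 pairs) and early 2C (0.19 to 0.557, 5 pairs), mCherry and uninjected at late 1C (0.126 to 0.638, 6 pairs), and the uninjected step from late 1C to early 2C (0.158 to 0.556, 6 pairs). It did not hold for Duxbl and mCherry at late 2C (-0.027 to 0.225, 5 pairs). In the order given, the same-numbered library was the best match in 3 of 4, 4 of 5, 3 of 6, 3 of 6 and 3 of 5 pairs. Nor did it hold for mCherry and uninjected embryos at early 2C (0.05 to 0.6, 6 pairs) or late 2C (-0.025 to 0.387, 6 pairs). Duxbl and uninjected embryos at late 2C (-0.146 to 0.021, 5 pairs) also failed the check. So did the early to late 2C steps of uninjected (-0.228 to 0.139, 6 pairs), mCherry (0.055 to 0.254, 6 pairs) and Duxbl embryos (-0.1 to 0.236, 4 pairs). The labels do not say what a number marks. Alternatives were another pseudocount (0.1 CPM), no filter, other scalings, voom weights, a replicate block, other sets of groups, uninjected embryos as the control, and leaving out each replicate. TMM within the libraries fitted, and leaving out replicate 4 of Duxbl or uninjected late 2C, were added after the data had been seen. For 1 member and 1 start stretch the individual results are not reported here; counts and sums over members in the report include that member, and plots of single genes leave it out.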

Additional observations from a re-analysis of the deposited data

Results flagged for a closer look

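In 18 of the 22 named members the change from early to late 2C differed between Duxbl and mCherry embryos in limma's interaction test. The step was lower in Duxbl embryos, on the log2 scale, by -4.32 for Mars1, -4.24 for Yars, -3.28 for Hars, -3.23 for Ears2, -3.10 for Aars, -2.78 for Farsa, -2.78 for Rars, -2.52 for Cars2, -1.99 for Aars2, -1.92 for Sars2, -1.89 for Cars, -1.74 for Mars2 and -1.61 for Eprs. It was higher for Farsb (1.54), Fars2 (1.40), Rars2 (1.19), Lars2 (1.06) and Vars2 (0.97). Over all genes tested 44.8% were called in this test. The named members were chosen in part by their values in the same late 2C libraries, so nothing is read from their share. Without replicate 4 of Duxbl late 2C the calls of Rars2 (0.82, adjusted p = 0.141), Lars2 (0.82, adjusted p = 0.113) and Vars2 (0.87, adjusted p = 0.0739) were lost in limma. These 3 calls were also lost on library totals without TMM and in the fit of the compared groups only. Calls were lost as well for Aars2 with uninjected embryos as the control (-0.57, adjusted p = 0.385), for Cars (-1.32, adjusted p = 0.0825) and Mars2 (-1.13, adjusted p = 0.0694) without replicate 3, and for Sars2 with a pseudocount of 0.1 CPM, with voom weights and without replicate 1 or 3 (adjusted p 0.0649 to 0.131).

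In 23 of 198 combinations of a named member and a group (11.6%), 1 library lay far from the others of its group, with a gap above Dixon's 95% critical value. By the construction of that value, chance gives about 1 in 20 for normally distributed values, which CPM of low genes need not be. In Duxbl embryos at late 2C these isolated values were 16.2 CPM for Aars in replicate 3, and 2.65 for Aars2, 49.5 for Rars2 and 14.2 for Yars in replicate 4. In uninjected embryos at late 2C they were 125.6 CPM for Fars2, 42.5 for Hars (a low value), 4.98 for Lars2 and 17.1 for Sars2, and in mCherry embryos at late 2C 170.6 for Fars2, 105.3 for Farsb and 5.85 for Vars. At early 2C they were 2.29 CPM for Aars2, 7.45 for Vars and 46.4 for Vars2 in mCherry embryos and 1.85 for Hars2 and 2.47 for Yars in uninjected embryos. At late 1C they were 2.86 CPM for Ears2 and 1.94 for Vars in mCherry embryos, 2.90 for Hars2, 43.6 for Vars2 and 0.903 for Yars in uninjected embryos, and 14.7 CPM for Mars2 and 1.11 for Yars in Duxbl embryos.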

How the results depend on the processing

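No called member result changed sign under any alternative run. Over all genes the median of the uninjected step, 0.03, was -0.02 on the deposited scale, and calls in the Duxbl step went from 5799 higher and 5391 lower to 4866 and 5894 with a pseudocount of 0.1 CPM, 4710 and 6043 with voom weights, 5327 and 6013 on the deposited scale and 3552 and 4110 with the compared groups only. Counts of called members that moved by over 1.5 times were small ones. On library totals without TMM, the mitochondrial members called lower in the uninjected step went from 5 to 3, those called higher in the step difference from 4 to 1, and those higher in Duxbl at late 2C from 2 to 1. The fit of all 9 groups gave 4 of the last. On the deposited scale, mitochondrial members called lower in the mCherry step went from 3 to 5. In the Duxbl step the 1 cytosolic member called higher became 0 with a pseudocount of 0.1 CPM, voom weights or the compared groups only, and mitochondrial members called lower went from 3 to 1 with the compared groups only. Mitochondrial members called higher in the step difference numbered 2 with voom weights or uninjected controls and 1 with the compared groups only. The compared groups only leave fewer libraries and genes; the other causes were not tested. Leaving out single replicates gave 3 to 5 mitochondrial members called lower in the uninjected step, 0 to 1 cytosolic and 2 to 4 mitochondrial members called higher in the Duxbl step, 1 to 4 mitochondrial members higher and 4 to 9 lower in the step difference, and 1 to 3 mitochondrial members higher in Duxbl at late 2C. Summed levels on library totals were, for cytosolic genes, 1360 and 1288 CPM in mCherry and Duxbl at late 1C and 1698 and 1750 CPM in uninjected and mCherry at late 2C. For mitochondrial genes they were 195.4, 197.9, 407 and 421 CPM in the same order, and 297.9 CPM in uninjected late 2C on the deposited scale.

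With the replicate number as a block, the count of cytosolic members called lower in Duxbl at late 2C remained 15 and that of mitochondrial members higher was 3 in place of 2. Among named members the block moved the call of Lars2 at late 2C, Mars1 in the Duxbl step and Hars2 (-1.44) and Yars2 (-1.60) in the step difference, and no other. The scaled deposited values hide the read depth, which limits the low members most, such as Vars and Aars2, whose groups hold libraries under 1 CPM.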
